A study of Homo sapiens with 8 samples.

Results

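NuRD, the nucleosome remodelling and deacetylase complex, joins 2 enzyme activities that usually silence genes: an ATPase that moves nucleosomes and deacetylases that strip acetyl groups from histones. The RNAs of 7 of its subunit genes, GATAD2A, GATAD2B, MTA1, MBD3, CHD4, CHD3 and HDAC1, were examined for peaks of the RNA-binding protein RBM45. The genes were chosen by name as NuRD subunits, with peak counts and shared peaks of these same lists known. Their levels are therefore given as descriptions without a test. Their members are all peaks on the gene's own strand that touch its span in hg19: 376 of 210878 peaks in replicate 1, 239 of 65587 peaks in replicate 2, and 93 of the 13758 deposited pairs of peaks found by both replicates. The only peaks used are those of the 2 wild-type (WT) CLIP libraries.

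The study asked where RBM45 sits on RNA and whether this depends on METTL3, the enzyme that writes most N6-methyladenosine (m6A) into messenger RNA. Its 8 libraries form 4 groups of 2 replicates: CLIP from METTL3 knockout cells, input from METTL3 knockout cells, CLIP from WT cells and input from WT cells. All came from HEK293T, a transformed human embryonic kidney line, carrying human RBM45 with a FLAG-HA tag delivered by lentivirus, and were exposed to 300 mJ/cm2 of ultraviolet light at 254 nm to cross-link protein to RNA. CLIP RNA was pulled down through the HA tag, so it reports on the introduced protein, and input was taken without antibody. Nothing here rests on the knockout or input libraries. The labels do not say whether replicates were separate cultures, and differences between the lists may therefore be technical.

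RBM45 is an RNA-binding protein with several RNA recognition motifs. CLIP peaks in the body of a gene are read as contact with RNA transcribed from it, including pre-messenger RNA. They say nothing of the protein that the gene makes. In NuRD, CHD4 and CHD3 are alternative ATPases, HDAC1 is a catalytic deacetylase, MTA1 is a scaffold that holds the deacetylase, and MBD3 is a member of the methyl-CpG-binding domain family. GATAD2A and GATAD2B (also called p66-alpha and p66-beta) are paralogs that bridge the MBD subunit and the ATPase.

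Peaks were unevenly spread over the 7 genes. The bridging, scaffold and MBD genes carried most of them, and the catalytic genes CHD4, CHD3 and HDAC1 the fewest, whatever the list. GATAD2A had 130 peaks in replicate 1 and 84 in replicate 2, GATAD2B 76 and 66, MTA1 94 and 41, and MBD3 35 and 27. CHD4 had 10 in each list, CHD3 had 15 and 6, and HDAC1 had 16 and 5. The deposited pairs followed the same division, with 29 in GATAD2A, 22 in GATAD2B, 21 in MTA1, 17 in MBD3, 3 in CHD4, 1 in HDAC1 and 0 in CHD3.

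The order changed when counts were set against gene length. MBD3, with the shortest span at 16.1 kb, was the densest gene, at 21.8 peaks per 10 kb in replicate 1 and 16.8 in replicate 2. MTA1 (50.9 kb) followed with 18.5 and 8.06, GATAD2A (123.1 kb) with 10.6 and 6.82, and GATAD2B (118.2 kb) with 6.43 and 5.58. CHD4 (37.4 kb) had 2.67 peaks per 10 kb in each list, CHD3 (28.0 kb) 5.37 and 2.15, and HDAC1 (41.5 kb) 3.85 and 1.2. MBD3, MTA1, GATAD2A and GATAD2B kept their order in both lists, while CHD4, CHD3 and HDAC1 changed places. In deposited pairs MBD3 had 10.6 per 10 kb, MTA1 4.13, GATAD2A 2.36 and GATAD2B 1.86, and the other 3 genes had under 1. How much RNA of each gene the cells held was not measured here, so its part in these counts was not tested.

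**Figure D1:**
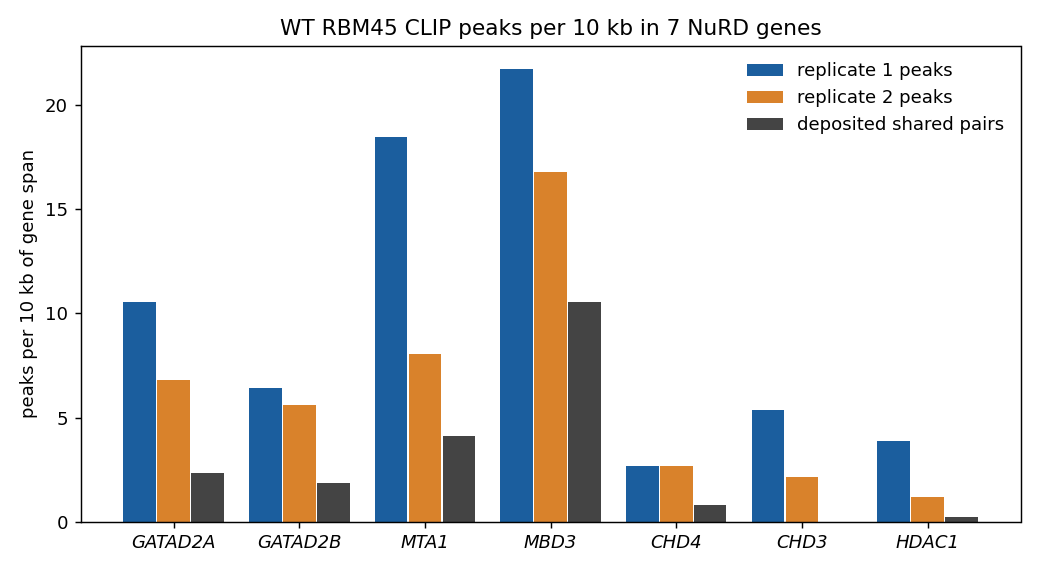
Peaks per 10 kb of gene span (vertical axis) in each of the 7 NuRD genes (horizontal axis), for replicate 1, replicate 2 and the deposited shared pairs. MBD3 reaches 21.8, 16.8 and 10.6, while CHD4 stays at 2.67, 2.67 and 0.802. Each bar is 1 list, so there is no error bar.

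The whole lists give a scale for these counts. Windows of 100 kb on 1 strand that held at least 1 peak had a median of 6 peaks in replicate 1 and 3 in replicate 2. GATAD2A had 106 per 100 kb in replicate 1 and 68.2 in replicate 2, above 99.8% and 99.9% of those windows. GATAD2B had 64.3 and 55.8, above 99% and 99.8%. The 90th percentile of the windows was 25 peaks in replicate 1 and 12 in replicate 2. CHD4, CHD3 and HDAC1 had at least 2.67 peaks per 10 kb of their shorter spans in replicate 1 and 1.2 in replicate 2. They were thus low beside the other genes examined and not beside the whole lists. Such windows also hold stretches between genes, and GATAD2A and GATAD2B were picked knowing that they were dense. The balance of the lists also differed in these genes. Replicate 1 listed 1.57 times as many peaks as replicate 2 in the 7 genes, against 3.22 times over the whole lists, with 1 in CHD4 and 3.2 in HDAC1 at the ends of the range.

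Replicate 2 peaks in these genes lay over a replicate 1 peak more often than replicate 2 peaks in general. Of the 239, 131 shared at least 1 base with a replicate 1 peak on the strand, or 54.8% (95% exact binomial interval 48.3 to 61.2, counting error only), against 28.8% of the whole list. The share was 45.2% in GATAD2A (38 of 84, interval 34.3 to 56.5), 51.5% in GATAD2B (34 of 66, 38.9 to 64.0), 78.0% in MTA1 (32 of 41, 62.4 to 89.4) and 70.4% in MBD3 (19 of 27, 49.8 to 86.2). In the genes with the fewest peaks it was 3 of 10 for CHD4, 2 of 6 for CHD3 and 3 of 5 for HDAC1. Their intervals were so wide (for CHD4 6.67 to 65.3%) that each contains the share of the whole list. The genes were picked with shared peaks known, and peaks of a gene are not replicates. The intervals are therefore no test against the whole list. Without GATAD2A the other 6 genes gave 60.0%, so the share does not rest on that gene. Seen from replicate 1, 33.8% of its peaks in the 7 genes were matched (127 of 376), against 8.88% of its whole list. In MTA1 and MBD3, where the matched share was highest, replicate 1 peaks also covered the most bases, 11.4% and 14.4% of the span, against 4.83% in GATAD2A and 3.19% in GATAD2B. Peaks were also wider there, with replicate 1 medians of 48 and 53 bases, against 35 and 36 in GATAD2A and GATAD2B and 30 in the whole list. CHD3 had the widest replicate 1 median of the 7 genes, 60 bases. Of its replicate 2 peaks 33.3% were matched (2 of 6), and of its replicate 1 peaks 13.3%, against 8.88% of that whole list. When 50% of both peaks had to overlap, the share was 34.7% in the 7 genes, against 19.6% in the whole list, with 31.8% in GATAD2B and 46.3% in MTA1. A rule of 1 shared base favours wide and crowded peaks, and the part of crowding in these shares was not tested. With only its strongest peaks by p kept, as many as replicate 2 has, replicate 1 listed 233 peaks in the 7 genes and matched 42.3% of the replicate 2 peaks, against 18.6% over the whole lists treated alike.

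**Figure D2:**
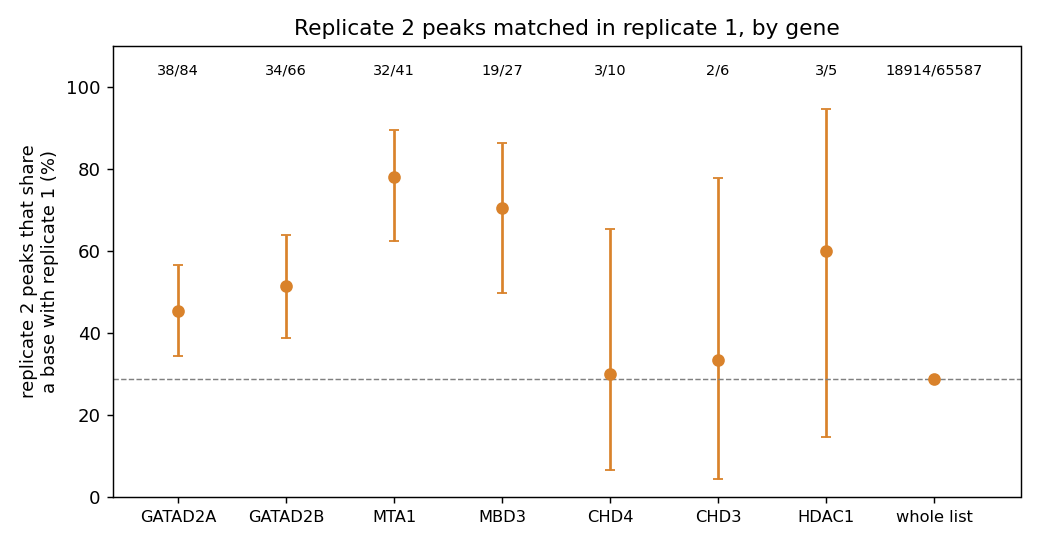
Share of replicate 2 peaks (percent, vertical axis) that share at least 1 base with a replicate 1 peak on the strand, for each NuRD gene and, at the right, the whole list. Bars are 95% exact binomial intervals (counting error only, no test) and the fractions above give the counts. GATAD2A, GATAD2B, MTA1 and MBD3 lie between 45.2% and 78.0%, above the dashed line at 28.8%, and the intervals of CHD4, CHD3 and HDAC1 cross it.

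Most unmatched peaks were not close to a peak of the other list. Of the replicate 2 peaks in the 7 genes, 63.6% (152 of 239) overlapped a replicate 1 peak or lay within 100 bases of one, against 37.4% of the whole list. Of the 108 that overlapped none, 21 lay that close (19.4%), against 12.0% of the unmatched peaks in the whole list. Matched peaks included, that distance took in 48 of 84 peaks in GATAD2A, 40 of 66 in GATAD2B, 33 of 41 in MTA1 and 23 of 27 in MBD3. In CHD4, CHD3 and HDAC1 it added none to the peaks already matched.

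Fold enrichment, which is the peak caller's ratio over its own background as the authors' lists give it, was also high for the lists. Peaks above 5-fold made up 23.7% of replicate 1 peaks in the 7 genes (89 of 376), against 9.16% of that list, and 30.1% of replicate 2 peaks (72 of 239), against 18.0% of that list. MTA1 had the largest number for its size in replicate 1, 29 of 94, followed by MBD3 with 10 of 35, GATAD2A with 30 of 130 and GATAD2B with 15 of 76. In replicate 2 the counts were 16 of 41 in MTA1, 11 of 27 in MBD3, 26 of 84 in GATAD2A and 14 of 66 in GATAD2B. In replicate 1 CHD4 had 1 of 10, CHD3 1 of 15 and HDAC1 3 of 16 (10%, 6.67% and 18.75%). In replicate 2 they had 2 of 10, 2 of 6 and 1 of 5 (20%, 33.3% and 20%). These shares rest on few peaks and lay above those of the whole lists, except for CHD3 in replicate 1. Median fold ranged only from 3.65 in GATAD2B to 4.22 in MTA1 in replicate 1, against 3.12 in the whole list. In replicate 2 it ranged from 3.07 in HDAC1 to 4.49 in MBD3, against 3.81 in the whole list, and CHD4, CHD3 and HDAC1 lay under the list's median. Folds came in steps: 92.8% of the replicate 1 peaks and 92.1% of the replicate 2 peaks in these genes had exactly the fold and p of some other peak in their list, against 97.4% and 93.5% of all peaks. Small differences in fold between peaks are therefore coarse.

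Within GATAD2A, peaks ran along the whole gene on chromosome 19 (19496642 to 19619740, plus strand). With the span cut into 10 equal bins, counted from the gene's start, every bin held 8 to 19 peaks of replicate 1. Replicate 2 was less even, with 16 peaks in bin 4 and 16 in bin 8, and only 2 in bin 7 and 2 in bin 10. The paired peaks gathered in the same places, 6 of 29 in bin 4 and 10 in bin 8. The densest 10-kb stretch held 8 pairs between 86.4 and 95.1 kb from the gene's start (19583023 to 19591757). The median distance from a pair to the next was 2.56 kb and the longest was 19.0 kb, 15.5% of the span.

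The pair with the highest fold in both lists was at 86.8 kb, in that dense stretch. Its replicate 1 peak (19583455 to 19583489, 35 bases) had a fold of 11.4 and a −log10 p of 24.4, and its replicate 2 peak (19583451 to 19583488, 38 bases) had 14 and 30.5. Among all 13758 pairs it ranked 28 by the lower of its folds, and its replicate 2 peak ranked 56 by fold in the whole list. Another pair lay shortly before it, at 86.4 kb, with folds of 2.41 in replicate 1 and 2.19 in replicate 2, so a strong and a weak pair stood side by side. The first pair of the gene, at 1.81 kb (19498436 to 19498466), had folds of 6.63 and 4.60, and the last, at 120.1 kb (19616724 to 19616762), had 2.84 and 3.50. The widest pair, at 73.6 kb, measured 109 bases in replicate 1 and 71 in replicate 2, with folds of 4.48 and 3.98.

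A further cluster in GATAD2A had its highest folds in replicate 1. Between 36.2 and 39.5 kb the replicate 1 peaks reached 12.6-fold (19534152 to 19534255, the highest of the gene in that list), 9.49-fold (19536014 to 19536179, 166 bases wide) and 9.02-fold (19532807 to 19532838). The first of these overlapped nearly the whole of a replicate 2 peak of 2.29-fold (19534207 to 19534256). This overlap fell short of 50% of the replicate 1 peak and was not among the deposited pairs. The 9.49-fold peak lay 1052 bases and the 9.02-fold peak 107 bases from the nearest replicate 2 peak. The paired peaks in the same stretch had folds of 7.36 and 4.58 in replicate 1 and 5.80 and 5.72 in replicate 2. Both lists were thus high there, but the highest peaks of replicate 1 had no counterpart of like strength.

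All 29 GATAD2A pairs agreed in fold within a factor of 2, against 90.5% of all pairs, and in 7 of them both peaks exceeded 5-fold (24.1%, against 13.9% of all pairs). The 29 pairs leave out the overlap of the 12.6-fold replicate 1 peak with a 2.29-fold replicate 2 peak. The replicate 2 fold was higher in 15 pairs and lower in 14. Pair midpoints were a median of 3.5 bases apart, close to the 4 bases over all pairs, and 20 of 29 lay within 10 bases. The Spearman correlation of the folds over the 29 pairs was 0.390, beside 0.318 over all pairs, given as a description because pairs share their 2 libraries.

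GATAD2B, the paralog on chromosome 1 (153777203 to 153895451, minus strand), is nearly as long as GATAD2A but its peaks lay mostly in the early part. The first 3 of its 10 bins held 52.6% of its replicate 1 peaks and 63.6% of its replicate 2 peaks, where those of GATAD2A held 30.8% and 25%. Bins 8 and 9 of GATAD2B had 4 replicate 1 peaks and 0 in replicate 2. Of its 22 pairs 15 lay in the first 3 bins, and a stretch of 48.9 kb, or 41.4% of the span, held no pair. The densest 10 kb, from 23.7 to 32.5 kb (153862940 to 153871738), held 9 pairs, close to the 8 of GATAD2A. The 2 paralogs thus had like numbers of pairs but a different layout along the gene. No test was made of the difference, since each gene is 1 sequence with its own introns.

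The best pair of GATAD2B, at 47.1 kb, had folds of 6.93 (153848347 to 153848377) and 7.34 (153848347 to 153848380), with the same lower coordinate. Its highest fold in replicate 2 was 10.3 at 8.06 kb (153887375 to 153887408), where the replicate 1 peak (153887375 to 153887405) had a fold of 3.08. In 4 of the 22 pairs the folds differed by more than a factor of 2, and in 16 the replicate 2 fold was the higher. Midpoints were a median of 3.5 bases apart, near the 4 bases over all pairs, and the lower coordinate was the same in 8 pairs. Pairs overlap by rule, so close midpoints are in part given by that rule.

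**Figure D3:**
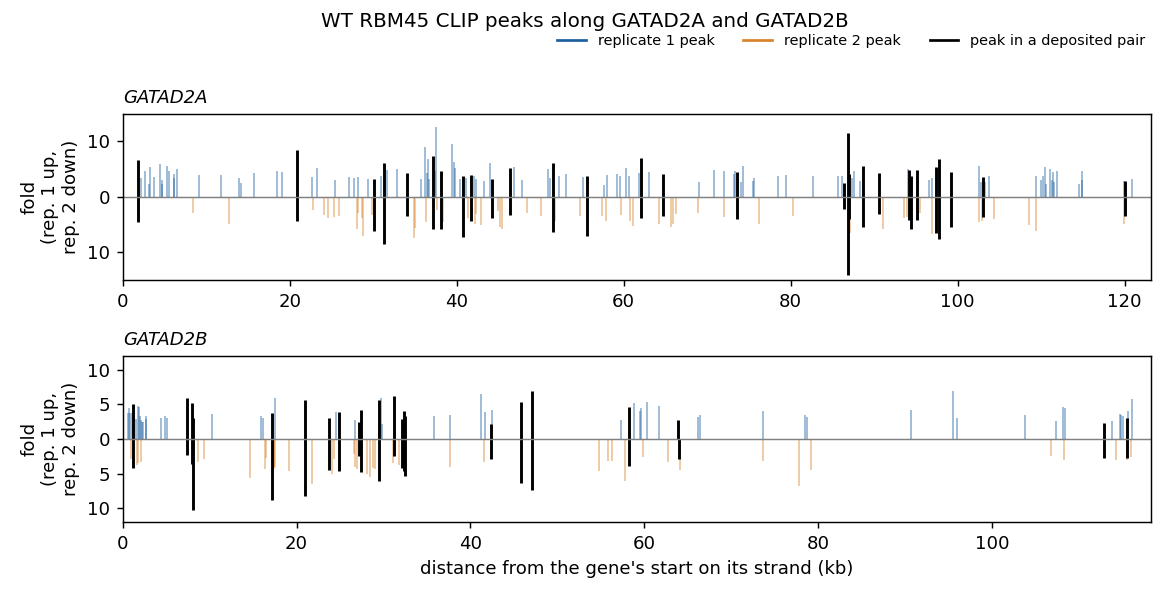
Peaks along GATAD2A (top) and GATAD2B (bottom), by distance from the gene's start on its strand (kb, horizontal axis) and fold enrichment (vertical axis, replicate 1 upward, replicate 2 downward). Black lines are peaks of deposited pairs. GATAD2A carries 29 pairs from 1.81 to 120.1 kb, and GATAD2B carries 22 with a stretch of 48.9 kb free of pairs.

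MTA1 on chromosome 14 (105886186 to 105937057, plus strand) had its pairs in 3 blocks. The first 10 kb or so were the densest, with 11 of its 21 pairs between 1.01 and 10.4 kb. Another 4 lay between 35.0 and 35.8 kb and the last 4 between 47.1 and 49.1 kb, with 2 between the first blocks. The longest stretch without a pair was 17.9 kb, although its bin 6 held 16 peaks of replicate 1 and 6 of replicate 2. All 6 of these replicate 2 peaks shared at least 1 base with a replicate 1 peak. None met the stricter overlap of the deposited pairs, so the 3 blocks describe those pairs and not all overlaps. The pair at 5.62 kb (105891782 to 105891822) had folds of 6.49 and 9.44. It tied by its lower fold, the highest of the gene, with the pair at 9.93 kb (105896104 to 105896135), which had 6.49 and, with the highest replicate 2 fold of the gene, 9.58. The highest in replicate 1, 8.84 (105921420 to 105921450), had no partner and lay 99 bases from the nearest replicate 2 peak. Across the 21 pairs the Spearman correlation of the folds was −0.115, a description over mostly tied folds, with 1 replicate 2 peak counted in 2 of the pairs.

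MBD3 on chromosome 19 (1576675 to 1592760, minus strand) carried 17 pairs within 16.1 kb, a median of 0.52 kb apart, and 14 of them lay between 1.08 and 10.4 kb. Its strongest signals were close to the gene's start. The pair at 1.08 kb had a −log10 p of 60.5 in replicate 1 (1591626 to 1591732, rank 104 of the list by p) and 73.5 in replicate 2 (1591629 to 1591705, rank 28). Its folds were 5.99 and 18.7, and the replicate 2 fold ranked 16 of the whole list. At 0.75 kb a replicate 1 peak of 118 bases (1591948 to 1592065) had the highest fold of any of the 376, 14.9, and overlapped a replicate 2 peak of 7.90-fold (1591949 to 1591989). Weak pairs lay among them, with folds of 2.59 and 2.29 at 1.35 kb and of 1.71 and 2.0 at 2.06 kb, so strong and weak peaks were mixed near the start. Further in, the widest pair, at 3.80 kb, measured 193 bases in replicate 1 and 212 in replicate 2, with folds of 3.56 and 4.67. The pair with the highest lower fold, 7.18 and 7.0, was at 13.6 kb (1579154 to 1579189). Of the 17 pairs, 13 agreed within a factor of 2, and in each of the other 4 the replicate 2 fold was the higher.

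The ATPase genes had fewer peaks in either list than GATAD2A, GATAD2B, MTA1 or MBD3. Of replicate 2 peaks 30% were matched in CHD4 (3 of 10) and 33.3% in CHD3 (2 of 6), against 28.8% of the whole list. Of replicate 1 peaks 30% were matched in CHD4 (3 of 10) and 13.3% in CHD3 (2 of 15), against 8.88%. These shares rest on few peaks. CHD4 (chromosome 12, 6679248 to 6716642, minus strand) had 9 of 10 replicate 1 peaks and all 10 replicate 2 peaks in the first 5 of its 10 bins. Its 3 pairs lay at 7.64, 17.3 and 18.4 kb, with replicate 1 folds of 6.08, 4.08 and 4.52 and replicate 2 folds of 3.07, 3.32 and 5.41. Pairs in CHD4 were thus of middling strength. CHD3 (chromosome 17, 7788124 to 7816075, plus strand) had replicate 1 peaks along its whole span, while its 6 replicate 2 peaks all lay in the last 10 kb, from 21.5 kb on. Only 2 of these 6 touched a replicate 1 peak, and neither reached the list of pairs. The highest folds in CHD3, 5.81 at 2.49 kb in replicate 1 and 5.72 at 27 kb in replicate 2, had no counterpart in the other list.

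HDAC1 (chromosome 1, 32757708 to 32799224, plus strand) had 16 peaks in replicate 1 and 5 in replicate 2, with 1 strong site. Its pair at 36.5 kb had a fold of 10.8 and a −log10 p of 51.9 in replicate 1 (32794214 to 32794265, rank 126 of the list by p), and 6.22 and 21.9 in replicate 2 (32794215 to 32794265, rank 366). The peaks were 52 and 51 bases wide and ended at the same base. Replicate 1 had 4 other peaks between 35.9 and 37.4 kb, with folds of 2.44 to 3.83. Replicate 2 had 2 others, at 35.95 and 37.44 kb, of 2.26-fold each, and both overlapped replicate 1 peaks, so all 3 matched replicate 2 peaks of HDAC1 sat around this site. Elsewhere in the gene the highest replicate 1 peak, 7.18-fold at 13.9 kb (32771540 to 32771588), lay 1825 bases from the nearest replicate 2 peak.

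**Figure D4:**
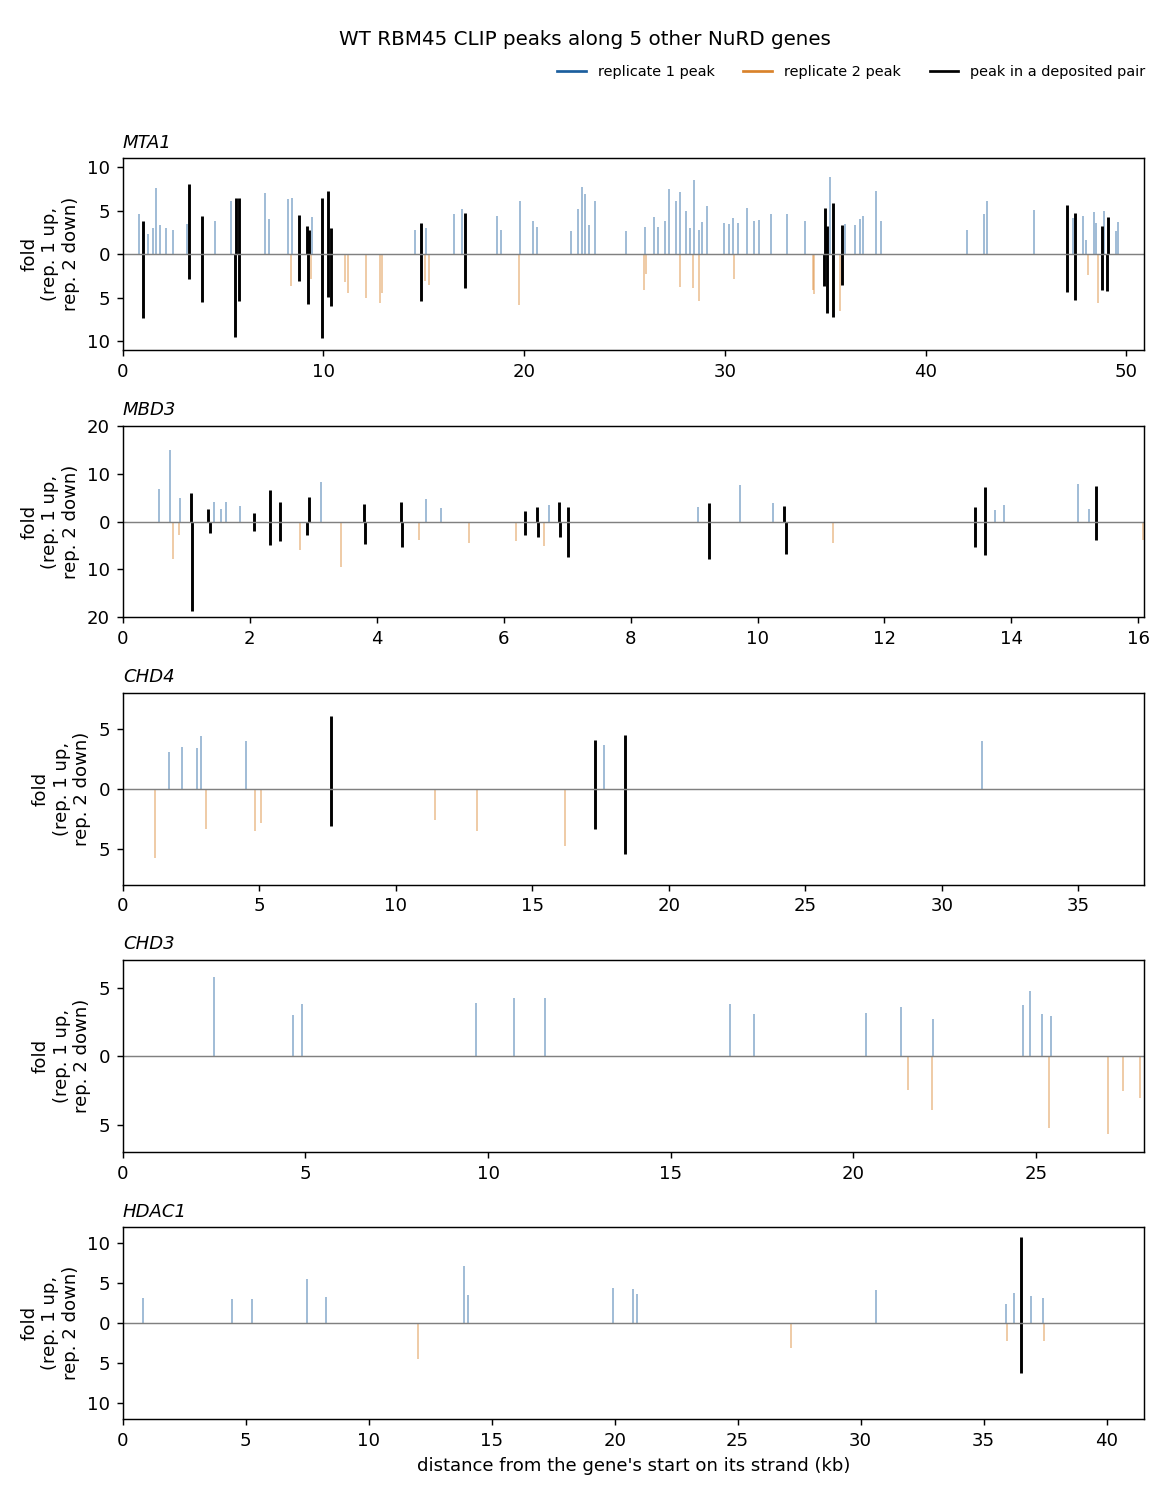
Peaks along MTA1, MBD3, CHD4, CHD3 and HDAC1 (top to bottom), by distance from the gene's start (kb, horizontal axis, scaled to each gene) and fold enrichment (vertical axis, replicate 1 upward, replicate 2 downward). Black lines are peaks of deposited pairs, of which CHD3 has 0 and HDAC1 has 1, at 36.5 kb.

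Set side by side, the 93 pairs had a median fold of 4.32 in replicate 1 and 4.59 in replicate 2, against 4.106 and 4.23 over all pairs. Both peaks exceeded 5-fold in 18 pairs (19.4%, against 13.9% of all pairs), 7 of them in GATAD2A, 4 each in GATAD2B and MTA1, 2 in MBD3 and 1 in HDAC1. Folds lay within a factor of 2 in 82 pairs (88.2%, near the 90.5% of all pairs), and the 11 exceptions were 4 in GATAD2B, 3 in MTA1 and 4 in MBD3. The highest replicate 2 folds, 18.7 in MBD3, 14 in GATAD2A and 10.3 in GATAD2B, met replicate 1 folds of 5.99, 11.4 and 3.08, so the GATAD2A site was the only 1 of these 3 that stood above 10-fold in both lists.

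**Figure D5:**
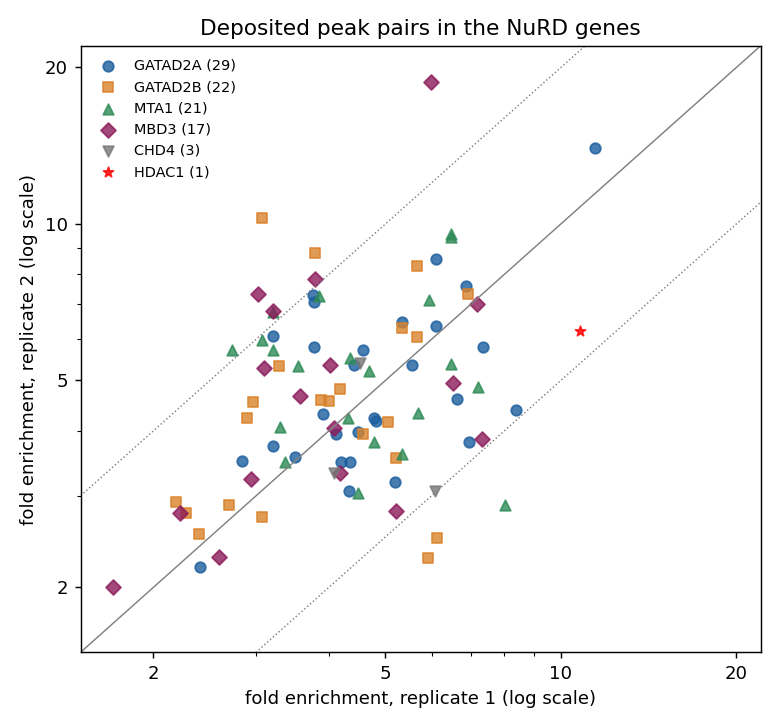
Fold enrichment of the 93 deposited pairs in replicate 1 (horizontal axis, log scale) and replicate 2 (vertical axis, log scale), marked by gene with the number of pairs in brackets. The solid line marks equal folds and the dotted lines a factor of 2, which 82 pairs lie within. The GATAD2A pair at 11.4 and 14 and the HDAC1 pair at 10.8 and 6.22 lie at the upper right, and the MBD3 pair at 5.99 and 18.7 above the upper dotted line.

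Over the 7 genes together, peaks were fewer in the 10 kb beyond the spans than in the 10 kb inside them. None of the 615 peaks crossed an end of a span, none lay within 500 bases of a gene's start, and the opposite strand of the 7 spans held 0 peaks in either list. The 10 kb upstream of the 7 genes held 10 replicate 1 peaks and 2 replicate 2 peaks, and the 10 kb downstream 2 and 1. Inside, the first 10 kb held 101 and 49 peaks and the last 10 kb 61 and 36, the 2 stretches overlapping in MBD3. The nearest peaks outside GATAD2A were 29.1 kb upstream and 10.1 kb downstream in replicate 1, with folds of 4.19 and 3.93, where those just inside it had 6.63 and 3.26. Outside peaks were thus not always weaker. Upstream of MBD3 the nearest replicate 1 peak, 7.92 kb away, had a fold of 8.29, against 6.85 for the first inside. In the deposited lists each peak of GATAD2A, GATAD2B, CHD4 and HDAC1 stood in 1 row, each peak of MTA1 and MBD3 in 2, and those of CHD3 in 1 to 4. Whether peaks were kept only where they matched an annotated gene strand is unknown, and its part in the sparse flanks and empty opposite strands was not tested.

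Some peaks may belong to other transcripts of the same place and strand. In GENCODE release 29, on another build and used here for names only, MIR640 overlaps GATAD2A, a processed pseudogene overlaps GATAD2B, TEX22 overlaps MTA1, an unnamed coding gene overlaps MBD3, an unnamed coding gene and SCARNA11 overlap CHD4 and SCARNA21 overlaps CHD3, while HDAC1 overlaps no other gene. That release draws GATAD2B, MBD3 and CHD4 longer than the spans used here, 134.3, 19.2 and 44.4 kb against 118.2, 16.1 and 37.4 kb.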

How the data were processed

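CLIP and size-matched input RNA were sequenced from HEK293T cells, and only the 2 WT CLIP replicates' peak lists gave values here. Per the submitters' processing notes the build was hg19, and the tools, with no roles given, were deepTools 3.2.1, HOMER 4.11.1, Novoalign 3.09.00, bedtools 2.25.0 and MACS2 2.1.1.20160309. The deposited peak names show 1 MACS2 run for each library at a p limit of 0.005. Which library served as background is not stated. For each peak the authors deposited the −log10 p without adjustment, a score (that value times 10, rounded down) and the fold enrichment, a ratio to background. A deposited list pairs WT CLIP peaks that overlap.

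Repeated rows (467329 and 148958 in all) were merged so that each peak on a strand counted as 1. Gene spans (hg19) are those of the rule that named the genes. Members and lists were chosen with earlier results of these data known. Peaks shared between lists overlap by at least 1 base on the strand; the deposited pairs are the stricter set that covers 50% of the replicate 1 peak. Intervals are 95% exact Clopper-Pearson. The named peaks are, per gene, the pair with the highest lower fold, the widest pair and the highest fold in each list, and for GATAD2A also the first and last pair and the densest 10 kb; other peaks named were chosen after their values were seen.

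The authors' read counts per peak, made with featureCounts 1.6.3 per the file headers, stand in 8 columns that could not be tied to samples by name. These columns stayed out, so the planned tests of CLIP against input and of knockout against WT were not run, and the depth of each library is unknown. Exons, introns, peak sequences and the remaining NuRD genes need an hg19 genome or annotation and were not analysed here. The overlap search was tested on simulated intervals against a brute-force count. Calculations used scipy 1.17.1, pandas 2.3.3 and numpy 2.4.6 under Python 3.11.15, and plots matplotlib 3.10.9. Alternatives were a stricter overlap, strand ignored, a −log10 p of at least 3, a reduced replicate 1 list and peaks wholly within a span.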

Additional observations from a re-analysis of the deposited data

How the results depend on the processing

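For the 7 genes together, 17 values recomputed under the alternatives stayed within 1.5 times the count, the interval of the share or the interquartile range of the fold, 5 moved and 0 reversed. The share of replicate 2 peaks matched in replicate 1, 54.8%, was 34.7% under a rule of 50% of each peak, 38.5% under 50% of the replicate 1 peak alone and 42.3% with replicate 1 held to its strongest peaks, as many as replicate 2 has, because fewer pairs qualify; the whole lists gave 19.6%, 20.9% and 18.6% under these settings. Shared pairs numbered 133 with 1 shared base and 83 with 50% of both peaks. The reduced list held 233 replicate 1 peaks in the genes instead of 376. For single genes 128 values stayed and 26 moved. Among those that moved, the 2 overlaps in CHD3 fell to 0 with 50% of both peaks required, and the matched share in GATAD2A was 31.0%, against 45.2% with 1 shared base. The strand and whole-span alternatives changed no value and could not, since the opposite strands held 0 peaks and 0 peaks crossed a span end. Nor could the reduced replicate 1 list change the peak counts and folds of replicate 2. These fixed values are among those counted as staying, so that count overstates stability. The count tests planned with other normalizations were not run. Leaving out a replicate leaves no overlap to count; each list's own counts are given in the report. No paired analysis was possible because no count column could be tied to a sample. The depth of each library is unknown, and its part in the counts was not tested.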
